A study of Homo sapiens with 4 samples.

Results

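The 7 ribosomal protein paralogs RPL7L1, RPL22L1, RPL26L1, RPL36AL, RPL39L, RPS27L and RPL3L were read from the deposited expression table by their symbols, each of which stood on 1 of the 57979 lines with values. Each paralog was set beside its parent, the gene of the standard cytosolic ribosomal protein from which its name is taken. The RNA came from cells labelled HepG2, a human hepatocellular carcinoma line grown in DMEM with 10% serum. The 2 wild-type and 2 TXNDC9 knockout libraries differed in the CRISPR-Cas9 targeting of TXNDC9, a thioredoxin domain protein that modulates the TCP1 chaperonin. The knockout cells were made with lentiviral Cas9 and guides to the gene's first exon, and the sources used here do not say which guide or whether a single clone was sequenced. The study describes its RNA-seq error bars as spread over independent experiments, but more of them than there are libraries per group here. Nothing ties each library to its own culture. The p-values therefore measure only the spread between these libraries, which may be technical. Values are FPKM, fragment numbers divided by transcript length and by a library size, so levels can be compared between genes per length. How the library size was set is not given in the sources used here.

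Each standard ribosomal protein of the small and large subunit is commonly made from a single expressed gene in mammals, beside many silent processed copies. A few have another functional gene, and such paralogs can take the place of the parent protein in some tissues or act elsewhere. RPL3L is the striated muscle counterpart of RPL3. RPL39L, known from testis and tumour cells, is a counterpart of RPL39, which lines the peptide exit tunnel. RPL22L1 is held down by RPL22 in several cell types, RPS27L is a counterpart of RPS27, a small subunit protein with a zinc finger, RPL7L1 resembles an assembly factor of the large subunit, and RPL36AL and RPL26L1 encode proteins very close to those of RPL36A and RPL26.

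Transcripts of standard ribosomal proteins commonly start with a C and a run of C and T (U in RNA), the 5′ terminal oligopyrimidine (TOP) motif through which mTOR and LARP1 control their translation. The 30 bases around the RefSeq start site (GRCh38.p14, 15 before it and 15 from it on) are shown so that this run can be compared between parents and paralogs. Capitals mark the longest run of C and T at or within 5 bases of the start. The run of RPL39, 22 letters long, goes on past the bases shown. Among the parents, read 5′ to 3′ on the gene's strand:
RPL22 (chr1:6199581-6199610, minus strand): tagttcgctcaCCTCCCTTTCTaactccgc
RPL26 (chr17:8383179-8383208, minus strand): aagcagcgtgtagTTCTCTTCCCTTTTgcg
RPL36A (chrX:101390996-101391025, plus strand): tttgcctcgcggTTTCTTTCTTTCCgcgcc
RPL39 (chrX:119791616-119791645, minus strand): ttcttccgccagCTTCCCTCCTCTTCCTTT
RPS27 (chr1:153990747-153990776, plus strand): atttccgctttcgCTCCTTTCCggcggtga
RPL3 (chr22:39319609-39319638, minus strand): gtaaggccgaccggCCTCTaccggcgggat

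The paralogs in the same table were:
RPL22L1 (chr3:170870181-170870210, minus strand): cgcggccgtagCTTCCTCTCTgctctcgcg
RPL36AL (chr14:49620612-49620641, minus strand): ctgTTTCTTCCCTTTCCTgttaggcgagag
RPL26L1 (chr5:172958714-172958743, plus strand): agtcttccaggggTCggcgaacgaaacgcg
RPL7L1 (chr6:42879601-42879630, plus strand): cggaagtgcggcgCCgtagctaggagcgga
RPS27L (chr15:63157463-63157492, minus strand): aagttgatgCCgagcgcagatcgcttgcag

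A first transcribed C that opened at least 5 unbroken letters of C or T was found in 5 of 6 parent windows, and in RPL3 the run ended 1 letter short. It was found in 1 of the 6 windows listed for paralogs, that of RPL22L1. RPL36AL had a run of 15 letters, the longest of the paralogs, but only its last letters lay past the start. RPL7L1, RPS27L and the start of RPL26L1 shown above had runs of 2 letters. Of all 35116 listed promoters 3.91% met the same condition, and so did 60.3% of the 78 listed for cytosolic ribosomal protein genes, which came from 63 of the 79 genes, some with several starts. The letters CACGTG, the core site of MYC and its partners and the same on both strands, occurred in the 300-base promoter of RPL7L1 and in none of the other listed paralog or parent promoters, against 7.26% of all promoters. A match is a description of the letters and not a bound site, and RPL7, RPL39L and RPL3L were not analysed in this way.

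The paralogs differed in how far they had diverged from their parents, which bears on whether reads could be shared. In the canonical transcripts of GENCODE release 44, the coding sequences were 94.8% identical over aligned bases for RPL39L and RPL39, 89.9% for RPL36AL and RPL36A and 84.1% for RPL26L1 and RPL26. The other pairs were further apart, with 77.8% for RPS27L and RPS27, 76.0% for RPL3L and RPL3, 70.6% for RPL22L1 and RPL22 and 61.0% for RPL7L1 and RPL7. No stretch of 75 bases occurred in both members of any pair. Other genes did share such stretches. RPL26L1 shared 33.5% of its 75-base stretches with RPL26P30, and RPL7L1 shared 10.3% with 11 pseudogenes and WAC-AS1, so the levels of these 2 paralogs are uncertain to that extent. The share was 3.65% for RPL36AL, 0.0994% for RPS27L and 0 for RPL22L1, RPL39L and RPL3L. Among the parents it ran from 15.2% for RPL22 to 65.1% for RPS27, mostly with pseudogenes. Within each pair the parent had the higher share, which makes its level the less certain one of the pair.

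TXNDC9 itself was 35.1 and 37.3 FPKM in wild type against 21.9 and 27.6 FPKM in knockout. It was lower in both but not called (log2 fold change −0.55, limma adjusted p = 0.0145), and its difference turned to 0.12 after rescaling to TPM. The study assessed the knockout by western blot and reported reduced TXNDC9 protein, which these RNA values do not measure. The FPKM values of a library summed to between 535973 and 971102, lowest in the knockout libraries, and the depth is unknown. The 8 defining hepatoma markers (ALB, AFP, APOA1, APOB, TTR, SERPINA1, FGB and HNF4A) were at or near 0 in all 4 libraries, with a summed level of 0.0479 to 0.716 FPKM and APOA1 at 0 throughout, which goes against the label HepG2. The 4 fibroblast markers summed to 18.7 to 33.6 FPKM, nearly all from COL1A1 with COL1A2 at 0, and the 3 endothelial markers to 0.803 to 1.22 in wild-type and 3.42 to 4.41 in knockout libraries, mostly from CDH5. The part of the cells' identity in the results was not tested.

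In wild-type cells the paralogs were expressed over a wide range, and all were far below their parents. RPL36AL was the most abundant, with a mean of 514 ± 103 FPKM (SD, n = 2). RPL26L1 followed with 212 ± 38.3 FPKM and RPS27L with 202 ± 51.7 FPKM (SD, n = 2), and their libraries overlapped. RPL22L1 stood at 119 ± 49.4 FPKM and RPL39L at 106 ± 28.1 FPKM (SD, n = 2), again with overlapping libraries. RPL7L1 was lower, at 56.8 ± 0.825 FPKM (SD, n = 2). RPL3L was close to 0, with 0.175 and 0.0520 FPKM in the wild-type libraries, a listed 0 in knockout replicate 1 and 0.0443 FPKM in knockout replicate 2. It was the 1 paralog below the minimum mean of 1 FPKM and was not tested, so 6 of the 7 paralogs and all 7 parents entered the comparison.

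**Figure D1:**
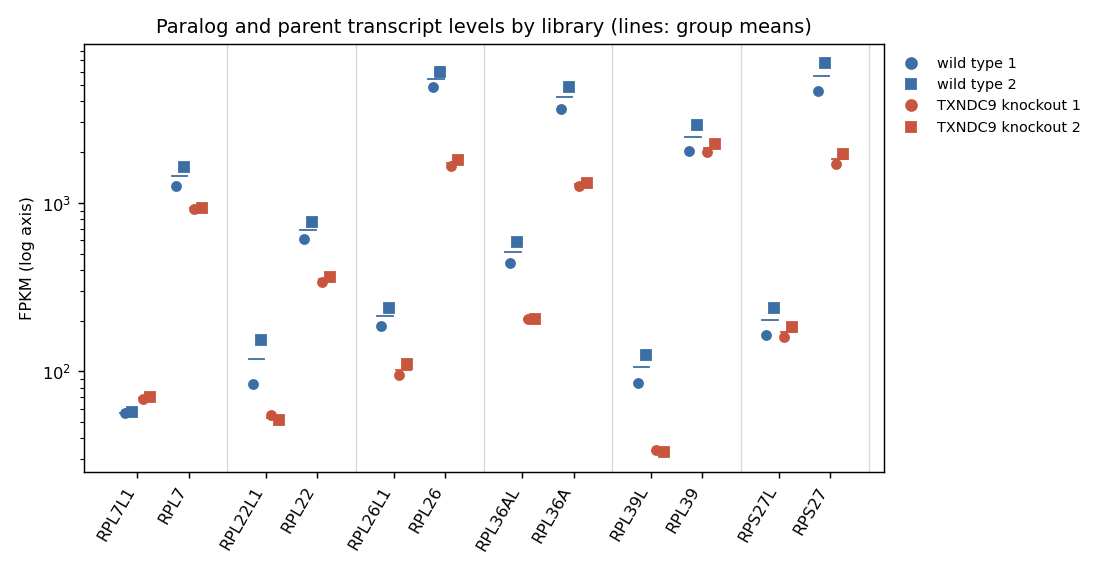
FPKM (log axis) of the 6 tested paralogs and their parents in each of the 4 libraries, with blue for wild type, red for TXNDC9 knockout, circles and squares for replicates 1 and 2, and lines for group means. The red points lie below the blue for every gene except RPL7L1, where they lie above, and RPS27L and RPL39, where the groups overlap.

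The order of the paralogs differed in the knockout cells. RPL36AL was still first with a mean of 204 ± 0.0672 FPKM and RPS27L next with 171 ± 16.8 FPKM (SD, n = 2). Then came RPL26L1 with 102 ± 10.8 FPKM, RPL7L1 with 69.4 ± 1.40 FPKM, RPL22L1 with 53.2 ± 2.80 FPKM and RPL39L with 33.7 ± 0.858 FPKM (SD, n = 2). None of these neighbours had overlapping libraries. RPL7L1, the lowest of the 6 in wild-type cells, thus stood above RPL22L1 and RPL39L in both knockout libraries.

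The comparison of knockout with wild-type cells used limma on log2(FPKM + 0.1), and a gene was called at a Benjamini-Hochberg adjusted p under 0.01 over 13246 genes and a change of at least 2-fold. Of the 6 tested paralogs, 3 were called lower (RPL26L1, RPL36AL and RPL39L) and 0 higher, and after rescaling to TPM all 3 kept a negative difference but 0 of the 6 were called. There RPL36AL and RPL39L still had a limma adjusted p under 0.01 and missed only the 2-fold rule. The sum used for TPM includes the ribosomal protein genes, so that scale is not independent of their levels. Of all tested genes 15.3% were called lower and 14.2% higher, against 3.37% and 33.1% on the TPM scale and 19.6% and 11% with each library centred on its median. With that centring 4 of the 6 paralogs were called lower, RPL22L1 being the added one, and 0 higher. Without knockout replicate 1 or 2 limma called 0 of the 13246 genes, the paralogs included, while 7129 and 7307 had an unadjusted p under 0.05. The median log2 fold change was −1.07 over the 6 paralogs, −1.06 over the 7 parents and −0.09 over all tested genes. The libraries of the groups did not overlap for 5 of the 6, 4 of them with the knockout below and 1 above, where 45.9% of all tested genes lay below and 40.1% above.

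RPL39L, the counterpart of an exit tunnel protein, had the largest fall of the 6. It was 85.8 and 125 FPKM in wild type against 34.3 and 33.1 FPKM in knockout. Its log2 fold change was −1.62 (standard error 0.19, limma adjusted p = 0.00106), and −0.94 after rescaling to TPM. Both knockout libraries were far below the lower wild-type library, and close to each other.

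RPL36AL, the autosomal counterpart of the X-linked RPL36A, was 440.5 and 587 FPKM in wild type against 204 FPKM in each knockout library. The groups were well apart, and the knockout libraries differed from each other by less than 1 FPKM. The log2 fold change was −1.32 (standard error 0.17, limma adjusted p = 0.00143), and −0.64 after rescaling to TPM.

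RPL26L1 was 185 and 239 FPKM in wild type against 94.6 and 110.0 FPKM in knockout. The groups did not overlap, and the difference of the log2 values was −1.04 (standard error 0.17, limma adjusted p = 0.00278). The call was lost without wild-type replicate 2, where the difference was −0.86 and under 2-fold. The call was also lost after rescaling to TPM (−0.36), after correction for length and GC content (−0.67) and when every gene above 0 was tested (limma adjusted p = 0.0142).

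RPL22L1 was 84.1 and 154 FPKM in wild type against 55.2 and 51.2 FPKM in knockout. Both knockout libraries were lower, but the wild-type libraries lay far apart, and the log2 fold change of −1.10 (standard error 0.28) did not pass the threshold (limma adjusted p = 0.0153). It ran from −1.53 without wild-type replicate 1 to −0.66 without wild-type replicate 2. After rescaling to TPM it was −0.42 (limma adjusted p = 0.096).

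RPS27L, the 1 small subunit paralog, was 165 and 239 FPKM in wild type against 159 and 183 FPKM in knockout. The groups overlapped. The log2 fold change of −0.22 (standard error 0.20, limma adjusted p = 0.370) turned to 0.46 after rescaling to TPM (limma adjusted p = 0.00875, under 2-fold). Corrected for length and GC content, it was −0.99 (limma adjusted p = 0.00846), just under 2-fold.

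RPL7L1, the paralog tied to large subunit assembly, was 56.3 and 57.4 FPKM in wild type against 68.4 and 70.4 FPKM in knockout. It was the 1 paralog with both knockout libraries above both wild-type libraries. The log2 fold change was 0.29 (standard error 0.10, limma adjusted p = 0.0421), which was not called. It was 0.97 after rescaling to TPM (limma adjusted p = 0.000449, under 2-fold) and −0.16 once corrected for length and GC content (limma adjusted p = 0.0972).

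**Figure D2:**
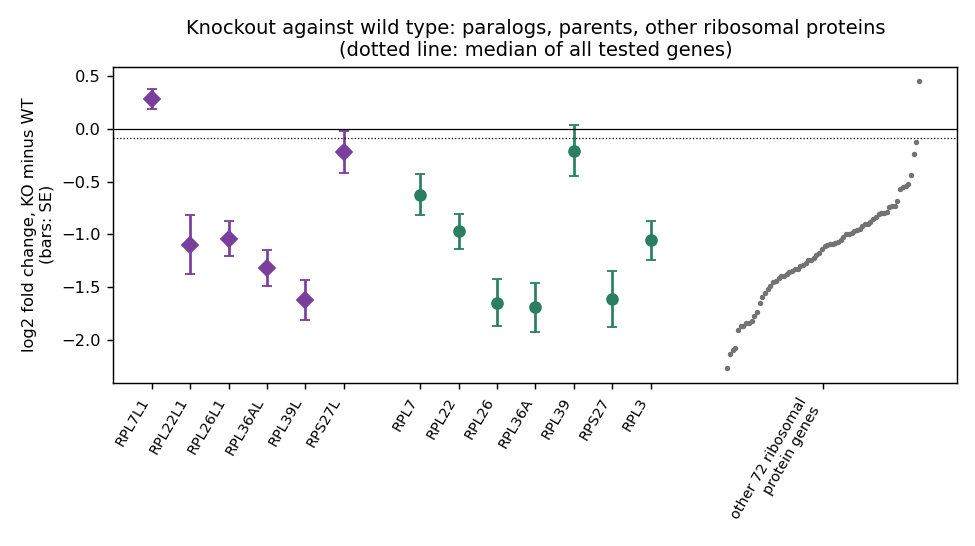
Log2 fold change of FPKM + 0.1 (knockout minus wild type) with standard errors for the 6 tested paralogs (diamonds) and the 7 parents (circles), beside the other 72 ribosomal protein genes in rank order (dots, without bars). RPL7L1 at 0.29 is above 0 in these FPKM values and −0.16 after the length and GC correction, RPS27L at −0.22 and RPL39 at −0.21 lie near the dotted median of all genes and turn positive on the TPM scale, and the rest lie between −2.27 and 0.46.

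Among the parents, 4 of 7 were called lower (RPL26, RPL36A, RPS27 and RPL3) and 0 higher, beside 15.3% and 14.2% of all tested genes. With each library centred on its median 5 were called lower, beside 19.6%. RPL36A, a large subunit protein near the tRNA exit site, was 3594 and 4851 FPKM in wild type against 1265 and 1318 FPKM in knockout, a log2 fold change of −1.69 (limma adjusted p = 0.00160). RPL26, a large subunit protein near the exit of the peptide tunnel, went from 4841 and 6011 FPKM to 1658 and 1791 FPKM, with −1.65 (limma adjusted p = 0.00165). RPS27 went from 4622 and 6720.0 FPKM to 1703 and 1941 FPKM, with −1.62 (limma adjusted p = 0.00310). In each of these 3 parents both knockout libraries lay far below the lower wild-type library. After rescaling to TPM only RPL36A was called (−1.01), beside 3.37% of all tested genes called lower. RPL26 at −0.97 and RPS27 at −0.94 were under 2-fold.

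RPL3, which forms part of the core near the peptidyl transferase centre, was 1632 and 2016 FPKM in wild type against 842 and 905 FPKM in knockout, with a log2 fold change of −1.06 (limma adjusted p = 0.00410). The call was lost after rescaling to TPM (−0.37), after the length and GC correction (−0.38) and without wild-type replicate 2 (−0.90). RPL22 was 614 and 773 FPKM against 339 and 364 FPKM, with −0.97 (limma adjusted p = 0.00362), just short of 2-fold. RPL7 was 1254 and 1633 FPKM against 919 and 938 FPKM, with −0.62 (limma adjusted p = 0.0313), or 0.06 after rescaling to TPM. These 3 had no overlap between groups. RPL39 was 2044 and 2891 FPKM against 2000.5 and 2220.0 FPKM, so its groups overlapped. Its log2 fold change of −0.21 (limma adjusted p = 0.479) turned to 0.47 after rescaling to TPM (limma adjusted p = 0.0024, under 2-fold).

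Of the 79 cytosolic ribosomal protein genes, the parents included, 48 were called lower and 0 higher, again beside 15.3% and 14.2% of all tested genes. After rescaling to TPM 13 were called lower and 1 higher, beside 3.37% and 33.1%, and after the length and GC correction 26 were called lower, beside 7.39%. With each library centred on its median 59 were called lower and 0 higher, beside 19.6% and 11%. Their log2 fold changes ran from −2.27 for RPL28, a large subunit protein, to 0.46 for RPS29, a zinc-binding small subunit protein, with a median of −1.11. RPS29 was 1771 and 2337 FPKM in wild type against 2783 and 2800.3 FPKM in knockout and was not called (limma adjusted p = 0.118).

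The level of a paralog relative to its parent within a library is free of any factor common to all genes of that library. It was taken as the paralog's share of the summed FPKM of the pair, and its log2 ratio to the parent was compared by a two-sided exact permutation test, adjusted over the 7 pairs. With 2 libraries against 2 the smallest p this test can give is 0.333, so no pair could pass 0.05. The groups are therefore described by whether their libraries overlap. This is no further evidence, since 2 groups of 2 libraries without overlap always give that smallest p. Of all tested genes 45.9% lay below and 40.1% above without overlap, and the share for ratios of gene pairs was not computed.

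RPS27L made up 3.45% and 3.43% of its pair with RPS27 in the wild-type libraries and 8.56% and 8.62% in the knockout libraries. The replicates were close and the groups far apart, with a difference of the log2 ratio of 1.40 (exact permutation p = 0.333, adjusted 0.467). RPS27L overlapped between groups while RPS27 was called lower. After the correction for length and GC content the difference was 0.46.

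RPL39L differed in the other direction. It made up 4.03% and 4.16% of its pair with RPL39 in the wild-type libraries and 1.69% and 1.47% in the knockout libraries, a log2 ratio lower by a difference of −1.41 (exact permutation p = 0.333, adjusted 0.467). Here the paralog was called lower and the parent overlapped between groups. After the correction the difference was −0.91.

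RPL7L1 made up 4.29% and 3.40% of its pair with RPL7 in the wild-type libraries and 6.92% and 6.98% in the knockout libraries. The knockout share was higher in both, with a log2 ratio difference of 0.91 (exact permutation p = 0.333, adjusted 0.467), and 0.25 after the correction. RPL26L1 made up 3.67% and 3.82% of its pair with RPL26 in wild-type and 5.40% and 5.79% in knockout libraries, a difference of 0.61. RPL36AL made up 10.9% and 10.8% of its pair with RPL36A in wild-type and 13.9% and 13.4% in knockout libraries, a difference of 0.37. In these 2 pairs paralog and parent were both called lower, the parent with the more negative log2 fold change, and the groups did not overlap (exact permutation p = 0.333, adjusted 0.467 for each).

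RPL22L1 made up 12.0% and 16.6% of its pair with RPL22 in the wild-type libraries and 14.0% and 12.3% in the knockout libraries. The groups overlapped, and the log2 ratio difference of −0.13 (exact permutation p = 1) turned to 0.14 without wild-type replicate 2. The share of RPL3L in its pair was at most 0.0107% in any library, which gave no usable ratio.

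**Figure D3:**
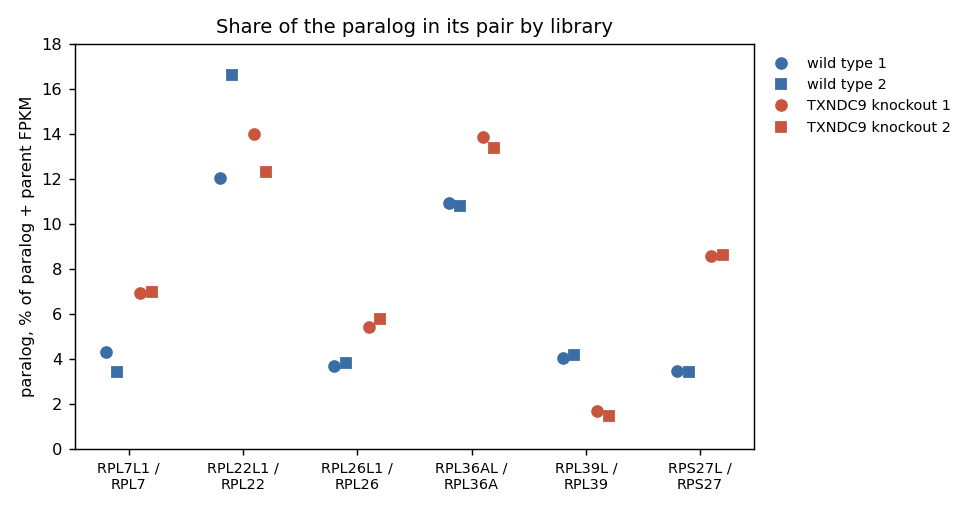
FPKM of the paralog as a percentage of the summed FPKM of paralog and parent, in each library, for the 6 tested pairs (blue wild type, red TXNDC9 knockout, circles replicate 1, squares replicate 2). The knockout points lie above the wild-type points for RPL7L1, RPL26L1, RPL36AL and RPS27L, below them for RPL39L, and among them for RPL22L1.

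The 2 paralogs with the highest log2 fold changes had the longest annotated transcripts. The canonical transcript was 4499 nt long for RPL7L1 and 6110 nt for RPS27L, of which 17.0% and 4.12% were coding, against 1902 nt for RPL22L1, 729 nt for RPL39L, 722 nt for RPL26L1 and 676 nt for RPL36AL. Over 13112 tested genes the log2 fold change was higher for longer transcripts, with a Spearman correlation of 0.495 across genes, which are not independent replicates. Tested genes within 0.5 log2 units of the length of RPL7L1 had a median log2 fold change of 0.34, and those near RPS27L 0.60. Genes near the length of RPL22L1 had a median of −0.49, and those near RPL26L1, RPL36AL and RPL39L had medians of −0.91, −0.90 and −0.90. All 6 paralogs lay below the median of their length class, RPL7L1 and RPL26L1 by the least and RPS27L by the most. Within the 79 ribosomal protein genes the same correlation was −0.03, and with GC content −0.35. All these lengths are of the canonical annotated transcript, such as 7573 nt for RPL37, and the form expressed in these cells was not determined. The correlations and the corrected values share this limit. The part of transcript length in the paralogs' values was not tested beyond the correction.

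**Figure D4:**
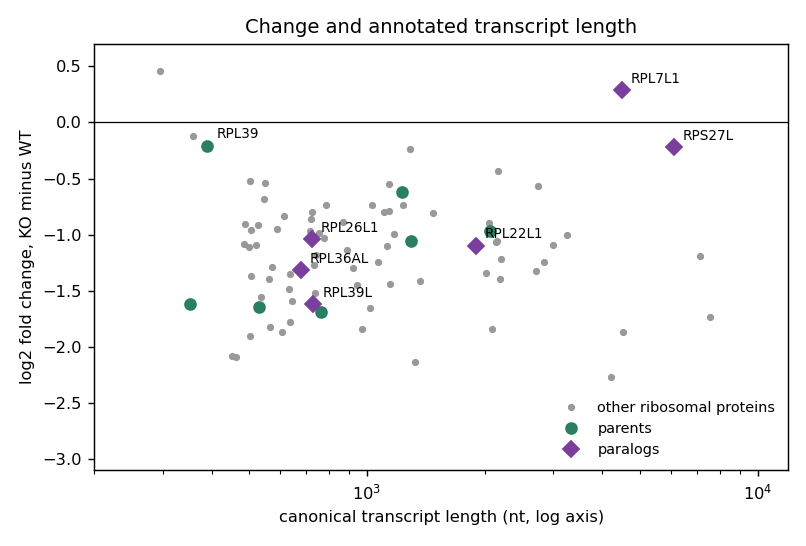
Log2 fold change (knockout minus wild type) against the length of the canonical transcript in GENCODE release 44 (log axis) for the 6 tested paralogs (diamonds), the 7 parents (circles) and the other ribosomal protein genes (dots). The longest paralogs, RPL7L1 at 4499 nt and RPS27L at 6110 nt, have the highest values of the 6, of which RPL7L1 turns negative after the length and GC correction and RPS27L positive on the TPM scale, while the dots show no rise with length.

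The paralogs were also matched to the 79 ribosomal protein genes by the distance between their 4 centred log2 values, with n = 4 libraries and no test. The nearest gene was RPL39 for RPS27L (distance 0.04), RPL29 for RPL26L1 (0.06), RPS7 for RPL36AL (0.07), RPL18 for RPL39L (0.13), RPL37A for RPL22L1 (0.27) and RPS29 for RPL7L1 (0.31). The parent was in no case the nearest, which is the usual outcome for any given gene among 79. By distance it ranked 10 of 79 for RPL7L1, 25 for RPL22L1, 42 for RPL36AL, 60 for RPL26L1, 64 for RPS27L and 77 for RPL39L. The distance to the nearest gene was greatest for RPL7L1 and RPL22L1, and the distance to the paralog's own parent was greatest for RPL39L (1.42) and RPS27L (1.40).

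In hg38, RPL7L1 is on chromosome 6 (42879616 to 42889925), RPL22L1 and RPL39L are on chromosome 3 (170864875 to 170870208 and 187120948 to 187180908), and RPL26L1 is on chromosome 5 (172958729 to 172969771). RPL36AL is on chromosome 14 (49618530 to 49620626), RPS27L on chromosome 15 (63125872 to 63158021) and RPL3L on chromosome 16 (1943974 to 1957606). Of the paralogs, RPL26L1 overlaps RPL26L1-AS1 and RPS27L overlaps LACTB, both on the opposite strand. The overlap is of gene spans, and shared exon bases were not examined. The use of strand in the authors' processing is not given in the sources used here. Whether reads of these neighbours entered the values of the paralogs is therefore unknown. Among the parents, RPL36A shares its locus with the readthrough gene RPL36A-HNRNPH2, listed at 6.92 and 11.3 FPKM in wild type against 0.473 and 1.69 FPKM in knockout.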

How the data were processed

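Polyadenylated RNA of 2 wild-type and 2 TXNDC9 knockout libraries was sequenced. Per the methods, TopHat2 placed the reads on hg38 with an Ensembl annotation, and the FPKM values that the authors deposited for every gene in each library came from Cuffdiff. Tool versions, the scaling of the libraries and whether strand was used are not given in the sources used here. The table had 231916 lines, 57979 of them with values. Its identifiers were out of register and were put back in order, after which 34949 (61.4%) of the 56935 identifiers present in GENCODE release 44 carried the same symbol there, against 1 before. The deposited averages, fold changes, p-values and q-values were not used.

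From these values, log2(FPKM + 0.1) was compared with limma 3.58.1 (R 4.3.3) over the 13246 genes with a mean FPKM above 1. The study's thresholds were used (adjusted p under 0.01, 2-fold). Low values showed no step worth 1 read, since the commonest log2 ratio between libraries held for at most 4.53% of low genes. The depth is unknown, and no interval or floor is given. Positions, lengths and identities came from GENCODE release 44, start-site sequences from RefSeq (5 of 7 paralogs and 6 of 7 parents matched), read with Python 3.11.15, pandas 2.3.3 and Biopython 1.88. The correction fitted a loess surface (span 0.3) of the length and GC content of the canonical transcript to each library.

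The genes named are the paralogs, their parents, TXNDC9, the nearest ribosomal protein of each paralog and the largest fall and rise in the ribosomal protein list. The members and lists were chosen with earlier results of these data known. On simulated data for 13246 genes of knockout against wild type, limma recovered 96% of 200 genes changed by 2 log2 units, with 13 false calls. These changes were larger than those of the called paralogs, so the recovery of the paralogs is not given by it. The simulated noise was independent between genes and libraries, so effects of scale or batch were not covered. Over the tested genes, the replicate difference in wild type correlated at −0.0904 with that in knockout. This gave no sign of a pairing by replicate number but does not exclude one.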

Additional observations from a re-analysis of the deposited data

How the results depend on the processing

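With 2 libraries in a group and no counts, the limits are the spread of the wild-type libraries and the scale of each library. Rescaling to TPM moved the median over all tested genes from a log2 fold change of −0.09 to 0.59 and left 0 paralogs, 1 parent and 13 ribosomal protein genes called lower and 1 of the last called higher, beside 3.37% of all tested genes lower and 33.1% higher; it turned RPS27L to 0.46, RPL7 to 0.057, RPL39 to 0.47 and TXNDC9 to 0.12. The length and GC correction left 2 paralogs, 3 parents and 26 ribosomal protein genes called lower, beside 7.39% of all genes, with RPL26L1 (−0.67) and RPL3 (−0.38) no longer called, and turned RPL7L1 to −0.16, both with and without the replicate block. Testing every gene above 0 in any library left 2 paralogs, 0 parents and 6 ribosomal protein genes called lower, beside 5.37% of all genes. Centring each library on its median raised these counts to 4, 5 and 59, beside 19.6% of all genes. Without each library in turn, 0 to 4 paralogs, 0 to 5 parents and 0 to 63 ribosomal protein genes were called lower; the counts of 0 came without knockout replicate 1 or 2, where the wild-type pair alone gave the spread and limma called 0 of all 13246 genes (7129 and 7307 at an unadjusted p under 0.05). Where the knockout pair alone gave it, 19.9% and 11.8% of all genes were called lower. RPL26L1 and RPL3 were under 2-fold without wild-type replicate 2, and over the 4 fits RPS27L ran from −0.48 to 0.047 and RPL39 from −0.46 to 0.044, both positive without that library. The ratio of RPL22L1 to RPL22 ran from −0.40 to 0.14 and that of RPL3L to RPL3 from −0.29 to 0.87; the latter was −1.15 with a pseudocount of 0.01 and −0.35 after rescaling to TPM. The cause was not tested. The other 5 ratios kept their direction in every alternative run for them. With the replicate block, which the correlation of −0.0904 did not call for, 4 paralogs, 4 parents and 48 ribosomal protein genes were called lower, beside 16.2% of all genes. RPL22L1 was the added paralog (limma adjusted p = 0.00109). It was also called with median centring (limma adjusted p = 0.00849) and over genes with a mean above 5 FPKM (limma adjusted p = 0.00876).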
